A study of Mus musculus with 24 samples.

Results

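The genes described here are 38 mouse genes for the soluble factors of complement and of blood clotting that the liver secretes, listed by gene symbol for what the proteins are known to do, with earlier results of these data known. Of the 38, 37 matched a gene identifier among the 41388 genes counted, and all 37 were among the 13052 genes with enough reads to be tested. The remaining gene, Klkb1, the plasma prekallikrein of the contact system, has no identifier with its symbol in the annotation used here. On GRCm38 the place that RefSeq gives it on chromosome 8, from 45266688 to 45294835, is covered by features named Gm45753 and Cyp4v3, and no value is given for it.

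Liver RNA was sequenced from male mice on a C57BL/6J background in 4 groups of 5 single-mouse libraries, and 1 library per group held RNA pooled from the same mice. Adn-Lpin1-/- mice carried a floxed Lpin1 gene and Cre driven by the adiponectin promoter, so that lipin 1 was removed in adipocytes and not in hepatocytes, and WT mice were littermates homozygous for the floxed gene without Cre. Mice were 8 weeks old when they started an LFD (10% of calories as fat) or an HFD (60%), and were fasted before tissue was taken. The sample labels give 16 weeks of diet, whereas the methods give a shorter feeding time. The groups were WT LFD, Adn-Lpin1-/- LFD, WT HFD and Adn-Lpin1-/- HFD. No group carried Cre without the floxed gene, so an effect of the Cre transgene and the loss of lipin 1 cannot be told apart.

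Complement is a cascade of plasma proteases in which lectins, antibodies or spontaneous activation lead to the cleavage of C3 and then of C5, after which C6 to C9 assemble a pore in the target membrane. Clotting runs from tissue factor and factor VII, or from the contact factors, through factor X to thrombin, which turns fibrinogen into fibrin, while antithrombin and the protein C system restrain it and plasmin dissolves the clot. Hepatocytes make most of these proteins, and several of them, among them fibrinogen and C3, are acute phase proteins whose genes respond to inflammatory cytokines.

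The members were mostly abundant transcripts. Levels are given as CPM, read counts corrected for TMM-scaled library size, and the member means over the 20 mice ran from 4.04 CPM (Cfb) to 6024 CPM (C3), with 32 of 37 at 100 CPM or more. Total counts per mouse ranged from 36260187 to 81072794, and group medians exceeded that of WT LFD by factors of 1.299 (Adn-Lpin1-/- LFD), 1.401 (WT HFD) and 1.528 (Adn-Lpin1-/- HFD). Depth did not overlap between WT LFD and the other groups, so that depth and group cannot be told apart in comparisons with WT LFD, whereas the 2 HFD groups overlapped. The lowest count of a member in any mouse was 145 reads. The members together took between 3.16% and 4.97% of the reads of a mouse. Each library used in a test came from 1 mouse, so that errors are the spread between mice, and nothing in the labels gives litter, cage or sequencing batch.

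Per kilobase of exon, the 3 fibrinogen chains, vitronectin and C3 led the members in every group but Adn-Lpin1-/- LFD, where Kng1 (1047 ± 60.5 CPM per kilobase) stood above C3 (911 ± 84.8). In WT LFD, Fgb (the fibrinogen beta chain) stood at 2802 ± 121 CPM per kilobase (SD, n = 5 mice), Fgg (gamma chain) at 1912 ± 141, Vtn (vitronectin) at 1497 ± 202, Fga (alpha chain) at 1290 ± 125 and C3 at 1259 ± 248. The order of Fgb over Fgg held beyond the spread, whereas Vtn, Fga and C3 did not differ beyond theirs. At the low end were Pros1 at 13.5 ± 1.07, C2 at 8.20 ± 0.802 and Cfb at 1.46 ± 0.0892 CPM per kilobase. For 3 members these levels are affected by the counting, which kept only reads assigned to 1 gene. In the exon positions deposited with the counts, 79.5% of the exon bases of Cfb (complement factor B) also belonged to the read-through gene Gm20547, leaving 579 bases of its own. Of those of C2, 46.9% were shared with Gm20547 and Zbtb12. Of the exon bases of Masp2, 54.9% overlapped Tardbp on the opposite strand, and whether counting used the strand is not given in the sources used here. Cfb and C2 levels are therefore understated by an unknown amount, those of Masp2 would be only if strand was not used, and C4b with C4a, and Kng1 with Kng2, are near copies whose shared reads were dropped.

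The 3 fibrinogen genes form a cluster on chromosome 3 of GRCm38, with Fgg at chr3:83007859-83015053, Fga at chr3:83026153-83033615 and, on the opposite strand, Fgb at chr3:83042247-83049803. C8b (chr4:104766317-104804548) and C8a (chr4:104815679-104876398), which encode chains of the eighth complement component, are neighbours on chromosome 4, and C3 lies at chr17:57203970-57228136. The 250 bases before the RefSeq start of the fibrinogen genes, of C8b and of C3 are shown as examples, and the genotype comparison does not rest on these genes. On GRCm38.p6 these stretches lie at chr3:83025903-83026152 (Fga, plus strand), chr3:83049864-83050113 (Fgb, minus), chr3:83007474-83007723 (Fgg, plus), chr4:104766067-104766316 (C8b, plus) and chr17:57228137-57228386 (C3, minus). Each is written 5′ to 3′ on the strand of its gene, and capitals mark matches on either strand to GTTAAT (an element of liver promoters), TTGCNNAA (a C/EBP site) and CTGGGAA (an element known from interleukin 6 responses of fibrinogen genes).
Fga: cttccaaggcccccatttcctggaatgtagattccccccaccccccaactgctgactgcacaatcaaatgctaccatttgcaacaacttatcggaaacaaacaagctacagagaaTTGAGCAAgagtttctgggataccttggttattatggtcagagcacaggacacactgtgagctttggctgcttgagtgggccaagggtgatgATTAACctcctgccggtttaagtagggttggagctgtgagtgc
Fgb: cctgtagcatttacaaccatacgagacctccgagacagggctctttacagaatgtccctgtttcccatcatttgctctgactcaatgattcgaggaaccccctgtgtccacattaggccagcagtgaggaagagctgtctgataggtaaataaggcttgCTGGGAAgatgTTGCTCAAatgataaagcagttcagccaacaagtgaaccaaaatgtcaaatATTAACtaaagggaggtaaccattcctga
Fgg: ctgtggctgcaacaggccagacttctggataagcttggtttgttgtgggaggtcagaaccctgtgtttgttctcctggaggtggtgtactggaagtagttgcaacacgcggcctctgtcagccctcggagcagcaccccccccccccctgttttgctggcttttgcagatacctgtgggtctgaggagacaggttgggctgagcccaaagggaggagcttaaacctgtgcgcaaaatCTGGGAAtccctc
C8b: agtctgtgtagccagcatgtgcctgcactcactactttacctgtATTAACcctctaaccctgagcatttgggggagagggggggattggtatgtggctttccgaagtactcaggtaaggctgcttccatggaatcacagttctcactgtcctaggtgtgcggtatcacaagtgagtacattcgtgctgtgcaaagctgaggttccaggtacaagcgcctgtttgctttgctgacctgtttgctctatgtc
C3: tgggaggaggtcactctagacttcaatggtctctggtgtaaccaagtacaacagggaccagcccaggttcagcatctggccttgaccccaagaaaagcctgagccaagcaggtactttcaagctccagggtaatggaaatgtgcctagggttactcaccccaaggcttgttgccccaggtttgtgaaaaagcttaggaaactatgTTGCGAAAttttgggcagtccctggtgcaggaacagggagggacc
A match describes these letters only and is not a shown binding site. GTTAAT or its complement began at position -29 from the RefSeq start in Fgb, -43 in Fga and -206 in C8b. For Fgb and Fgg that start lies upstream of the start of the counted gene, whose coordinates are given above. TTGCNNAA began at -80 in Fgb, -135 in Fga and -45 in C3, and CTGGGAA at -91 in Fgb and -13 in Fgg. The table of promoters, which spans 250 bases before to 50 after each start, held an entry for 28 members. GTTAAT occurred in 9 of the 28 (32.1%) and in 7.1% of all 32851 promoters, TTGCNNAA in 8 (28.6%, against 10.8%) and CTGGGAA in 6 (21.4%, against 11.1%). The motifs were picked for what is known of liver promoters, and these shares carry no test.

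The main question of the design was how loss of lipin 1 in adipocytes changed the liver. On the LFD, 16 of the 37 members passed the test for genotype, 15 of them lower and 1 higher in Adn-Lpin1-/- mice, against 14.4% called among all genes tested, 8.11% lower and 6.27% higher. On the HFD, 23 passed, 22 of them lower and 1 higher, against a background of 18.6% called, 8.78% lower and 9.87% higher. A gene is called where its p from edgeR's quasi-likelihood F-test, adjusted over all 13052 genes by the method of Benjamini and Hochberg, was 0.05 or less. Standard errors (SE) were derived from this test, as the size of the log2 fold change divided by the square root of F. By sign alone, 35 of 37 members were lower in Adn-Lpin1-/- mice on the LFD, as were 36 of 37 on the HFD. The median member log2 fold change was -0.29 on the LFD and -0.31 on the HFD, beside 0.01 and 0.00 over all genes. Abundant genes leaned the same way: the 1332 genes with a mean of 100 CPM or more had a median of -0.09 on both diets, with 18.3% of them lower and 2.78% higher by the same threshold on the LFD, and 20.7% lower and 3.3% higher on the HFD.

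**Figure D1:**
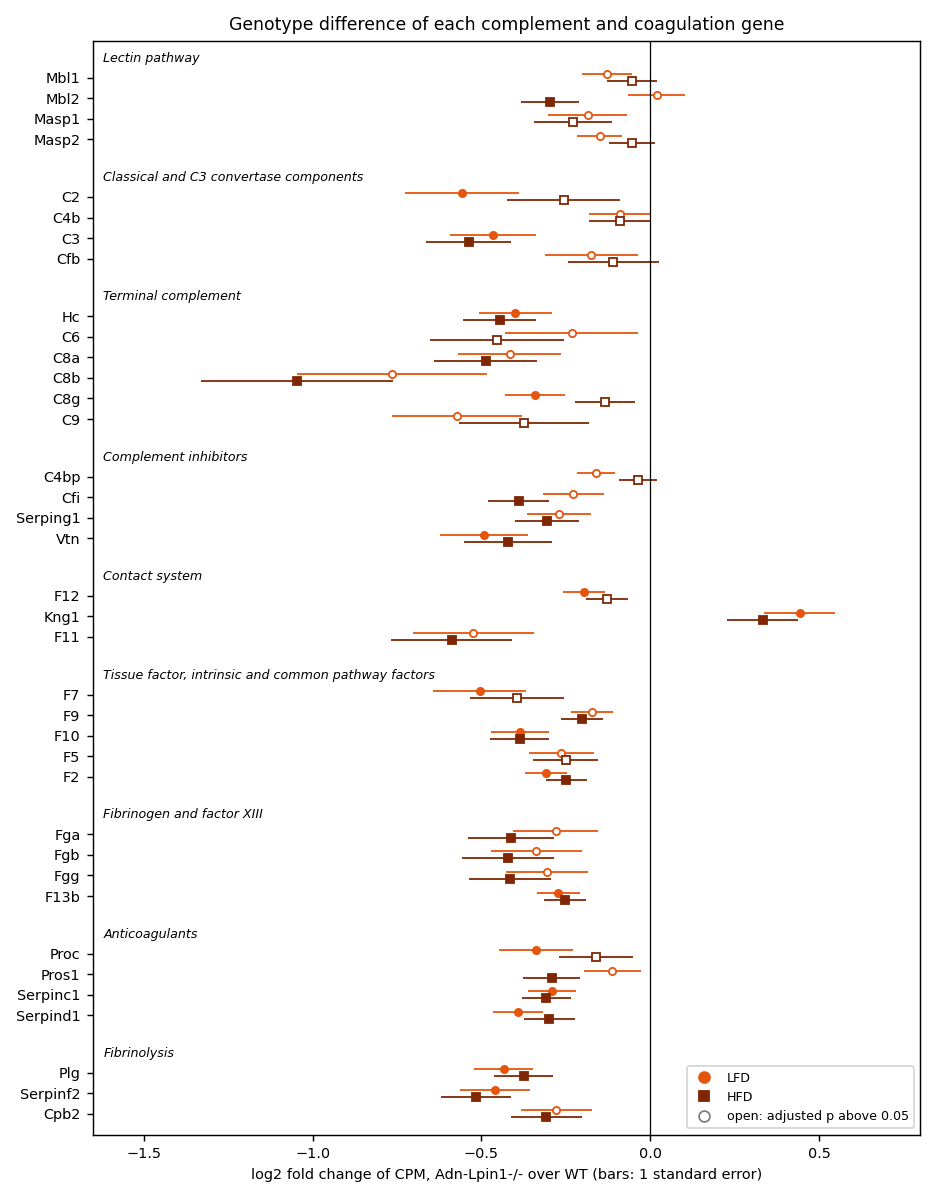
Log2 fold change of CPM between Adn-Lpin1-/- and WT mice for each of the 37 measured members, grouped by role, on the LFD (circles) and the HFD (squares), with 1 standard error derived from the F-test. Filled symbols have an adjusted p at or below 0.05. Kng1 is the only member called higher on either diet, and C8b is farthest below 0 on both.

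Summed over the 37 members, expression was lower in Adn-Lpin1-/- than in WT mice on both diets. On the LFD the sum was 39870 to 48600 CPM in the 5 WT mice (44040 ± 3231, mean and SD) and 30400 to 39380 CPM in the 5 Adn-Lpin1-/- mice (36050 ± 3494), so that the groups did not overlap. On the HFD it was 38370 to 52960 CPM in WT (44350 ± 5335) and 32760 to 39870 CPM in Adn-Lpin1-/- mice (35140 ± 2953), with WT mouse 4 below Adn-Lpin1-/- mouse 4. The group means fell by 18.2% on the LFD and 20.8% on the HFD. Without the fibrinogen chains, which made up the largest block, the sums of the other members fell by 17.8% and 19.3%.

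The members tended to be high or low together in a mouse. In WT HFD, mouse 5 had the highest level of 28 of the 37 members and mouse 4 the lowest of 23. Mouse 3 of WT LFD was highest in 21 and mouse 5 lowest in 22, in Adn-Lpin1-/- LFD mouse 1 was highest in 17 and mouse 5 lowest in 25, and in Adn-Lpin1-/- HFD mouse 4 was highest in 21. The 37 members are therefore not 37 separate observations of the genotype. The 11 members called on both diets were C3, Hc, Vtn, Kng1, F10, F2, F13b, Serpinc1, Serpind1, Plg and Serpinf2, each with the same sign on both diets. They made up 68.8% of the LFD calls and 47.8% of the HFD calls. That overlap was not worked out for all genes, so it is not shown to be particular to the members. Each comparison set different mice against each other, but the single mice of all groups shared a fit and its estimate of spread. The LFD call of Proc was lost without WT HFD mouse 1 or 3, and the HFD call of Cpb2 without any of several Adn-Lpin1-/- LFD mice.

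**Figure D2:**
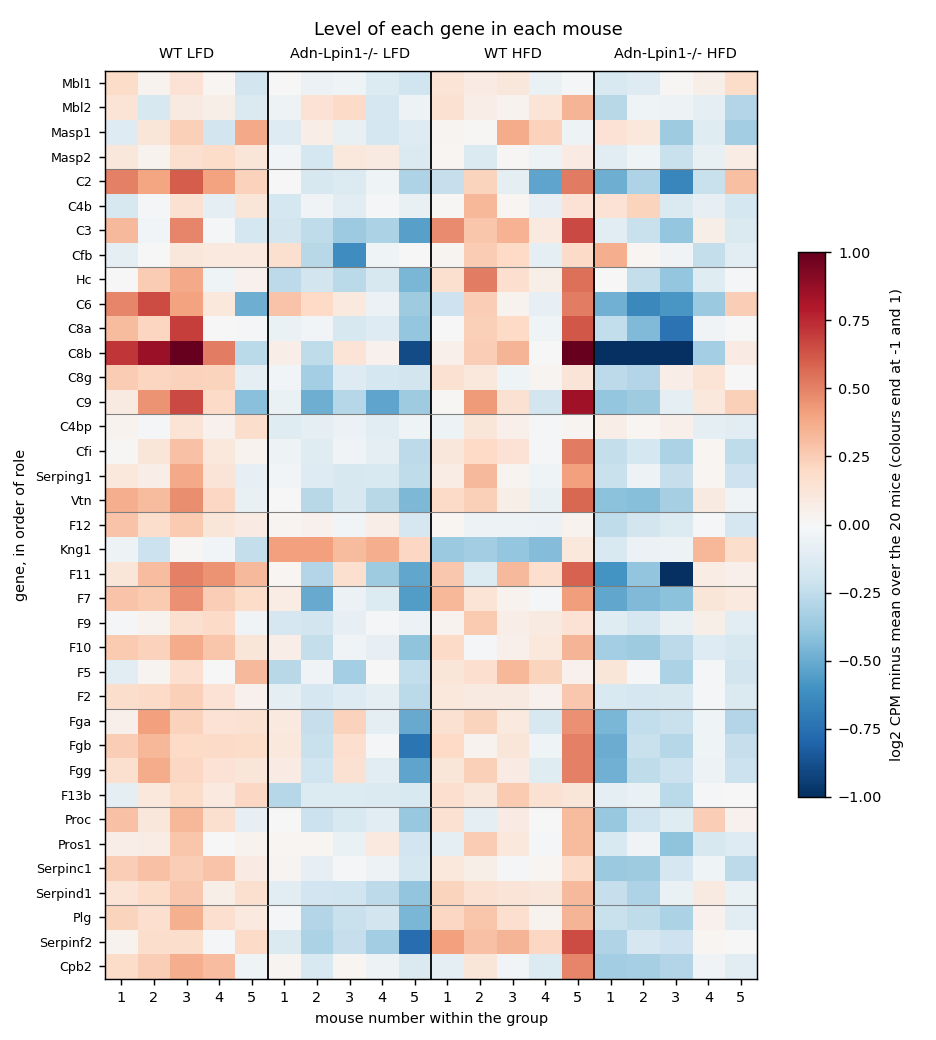
Log2 CPM of each member (rows, in order of role) in each of the 20 mice (columns, by group), as the difference from the mean of that member over the 20 mice; red is higher and blue is lower. Whole columns share a colour, most plainly WT HFD mouse 5 (red) and Adn-Lpin1-/- LFD mouse 5 (blue), and the row of Kng1 runs against the others.

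C3, the protein on which all routes of complement activation meet, fell in Adn-Lpin1-/- mice on both diets. On the LFD it was 7351, 5770, 8255, 5787 and 5203 CPM in the WT mice and 5182, 4929, 4575, 4720 and 4021 CPM in the Adn-Lpin1-/- mice. HFD levels were 8150, 7131, 7459, 6290 and 9277 CPM in WT and 5435, 5033, 4478, 6123 and 5314 CPM in Adn-Lpin1-/- mice. No Adn-Lpin1-/- mouse reached the level of any WT mouse on its diet, though narrowly on the LFD, where the lowest WT mouse and the highest Adn-Lpin1-/- mouse nearly met. The log2 fold change of C3 was -0.47 ± 0.13 (SE, edgeR, adjusted p = 0.0183) on the LFD and -0.54 ± 0.13 (adjusted p = 0.00717) on the HFD, decreases in the means of 27.6% and 31.1%.

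Of the other genes of the classical pathway and the C3 convertases, C2, the protease of the classical convertase, was 27.5 to 35.9 CPM in WT LFD and 19.03 to 23.6 CPM in Adn-Lpin1-/- LFD and fell with a log2 fold change of -0.56 ± 0.17 (edgeR, adjusted p = 0.0328). On the HFD C2 ranged from 16.3 to 33.7 CPM in WT and from 15.0 to 29.0 CPM in Adn-Lpin1-/- mice, and did not pass (adjusted p = 0.303). C4b, the complement component C4, and Cfb, the protease of the alternative convertase, passed on neither diet, with log2 fold changes between -0.17 and -0.09.

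In the lectin pathway 0 of 4 members passed on the LFD in edgeR, 1 of them at an unadjusted p under 0.05, and 1 of 4 passed on the HFD. Among all genes 14.4% passed on the LFD and 18.6% on the HFD. Mbl1, one of both mannose-binding lectins of the mouse, was 106 to 136 CPM in WT LFD, 105 to 120 CPM in Adn-Lpin1-/- LFD, 115 to 132 CPM in WT HFD and 108 to 136 CPM in Adn-Lpin1-/- HFD, and its groups overlapped throughout (edgeR, adjusted p = 0.273 on the LFD and 0.65 on the HFD). Mbl2, the other, was called lower on the HFD, where WT mice ranged from 350 to 431 CPM and Adn-Lpin1-/- mice from 279.0 to 332 CPM without overlap (log2 fold change -0.30 ± 0.09, adjusted p = 0.0213). On the LFD the 2 genotypes lay at 306 to 376 CPM and 304 to 390 CPM (log2 fold change 0.02 ± 0.09, adjusted p = 0.914). The difference between the diets for Mbl2 had the smallest unadjusted p of the members, 0.0163, and an adjusted p of 0.598 in edgeR. Masp1 and Masp2, the proteases that the lectins carry, passed on neither diet.

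In the terminal pathway all 6 members were lower in Adn-Lpin1-/- mice by sign on both diets, with 2 called on the LFD (Hc, C8g) and 3 on the HFD (Hc, C8a, C8b). Lower calls made up 8.11% and 8.78% of all genes, and 18.3% and 20.7% of those at 100 CPM or more. Hc, which encodes C5, the first protein of the pore-forming steps, was 692, 824, 900.2, 670.1 and 712 CPM in WT LFD and 576, 607, 575, 619 and 504 CPM in Adn-Lpin1-/- LFD. On the HFD the values were 771, 983, 776, 718 and 1013 CPM in WT and 693, 584, 528, 637 and 685 CPM in Adn-Lpin1-/- mice. The genotypes did not overlap on either diet. Hc fell with a log2 fold change of -0.40 ± 0.11 (edgeR, adjusted p = 0.0187) on the LFD and -0.45 ± 0.11 (adjusted p = 0.0087) on the HFD.

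C8b, the beta chain of C8, had the greatest fold change of the members on both diets and also the greatest spread between mice. On the HFD it was 262, 301, 322, 254 and 548 CPM in WT and 103, 124, 121, 200.2 and 269 CPM in Adn-Lpin1-/- mice. Adn-Lpin1-/- mouse 5 lay above WT mice 1 and 4, and the other Adn-Lpin1-/- mice were below all WT mice. C8b fell with a log2 fold change of -1.05 ± 0.28 (edgeR, adjusted p = 0.0157), and the call was kept when WT HFD mouse 5, the highest, was left out, as it was without each of the other mice. On the LFD C8b ranged from 211 to 512 CPM in WT and from 137 to 280 CPM in Adn-Lpin1-/- mice (log2 fold change -0.76 ± 0.28, adjusted p = 0.0747). Its within-group SD on the log2 scale was 0.49, beside a median of 0.17 over the members, and its highest mouse was 5.34 times its lowest.

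C8a and C8g, the other chains of C8, had smaller fold changes than C8b, a difference that was not tested. C8a was 667 to 1057 CPM in WT HFD and 413 to 691 CPM in Adn-Lpin1-/- HFD (edgeR, log2 fold change -0.49 ± 0.15, adjusted p = 0.0325). C8g was 299 to 380 CPM in WT LFD and 252.4 to 313 CPM in Adn-Lpin1-/- LFD, with WT mouse 5 below Adn-Lpin1-/- mouse 1 (edgeR, log2 fold change -0.34 ± 0.09, adjusted p = 0.0133). The level of C8b per kilobase was 0.588 ± 0.0877 of that of C8a in WT mice on the HFD and 0.400 ± 0.112 in Adn-Lpin1-/- mice, and 0.674 ± 0.146 and 0.528 ± 0.114 on the LFD. These ratios ranged from 0.527 to 0.740 and from 0.252 to 0.556 on the HFD, so the genotypes overlapped, and they were not tested. C9, which polymerises into the pore, was 349 to 738 CPM in WT LFD, 325 to 446 CPM in Adn-Lpin1-/- LFD, 411 to 841 CPM in WT HFD and 358 to 553 CPM in Adn-Lpin1-/- HFD and missed the threshold on both diets (edgeR, adjusted p = 0.0508 and 0.179). C6 did not pass either (adjusted p = 0.463 and 0.114).

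**Figure D3:**
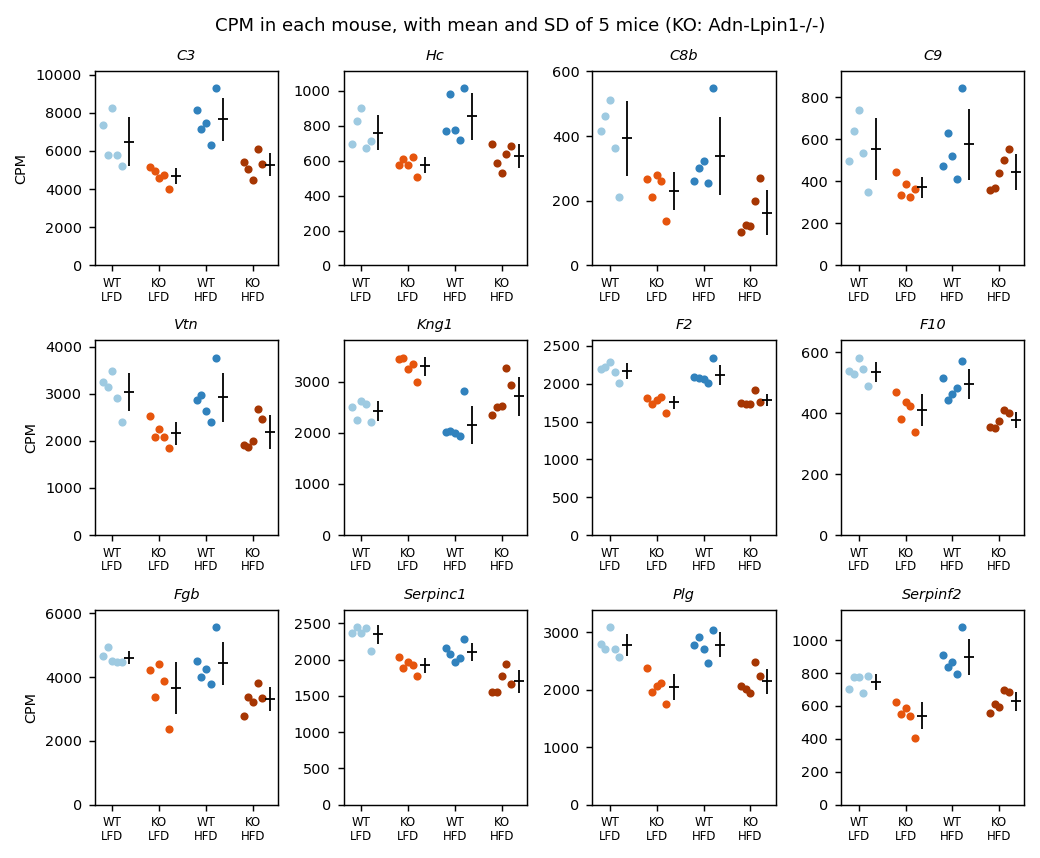
CPM of 12 members in each mouse (points), with the mean and SD of the 5 mice of a group beside them, on axes that start at 0. C3, Hc, F2, F10, Serpinc1 and Serpinf2 show no overlap between the genotypes on either diet, Kng1 is higher in Adn-Lpin1-/- mice, and C8b has a wide spread with 1 high mouse in WT HFD.

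Of 4 genes that hold complement in check, 1 was called lower on the LFD and 3 were on the HFD. The share called lower was 8.11% and 8.78% over all genes, and 18.3% and 20.7% over those at 100 CPM or more. Vtn, vitronectin, which keeps the terminal complex off host membranes, was 3243, 3150, 3484, 2912 and 2401 CPM in WT LFD and 2520, 2081, 2262, 2083 and 1849 CPM in Adn-Lpin1-/- LFD, where the lowest WT mouse lay below the highest Adn-Lpin1-/- mouse. It fell with a log2 fold change of -0.49 ± 0.13 (edgeR, adjusted p = 0.0162) on the LFD and -0.42 ± 0.13 (adjusted p = 0.0305) on the HFD, where it ranged from 2396 to 3765 CPM in WT and from 1881 to 2686 CPM in Adn-Lpin1-/- mice. Cfi, the factor I protease that inactivates C3b and C4b, was called on the HFD (573 to 833 CPM in WT, 465 to 588 CPM in Adn-Lpin1-/- mice, log2 fold change -0.39 ± 0.09, adjusted p = 0.0062). So was Serping1, the C1 inhibitor, which also restrains the contact system (921 to 1260 CPM against 807 to 962 CPM, log2 fold change -0.31 ± 0.09, adjusted p = 0.0302). On the LFD their adjusted p values in edgeR were 0.0942 and 0.0593. C4bp, the C4b-binding protein, was the steadiest member, with a within-group SD of 0.07 on the log2 scale, and passed on neither diet (log2 fold change -0.16 ± 0.06 and -0.04 ± 0.06, adjusted p = 0.0611 and 0.691 in edgeR).

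Kng1, the kininogen of the contact system and the source of bradykinin, was the exception among the members. On the LFD it was 2512, 2246, 2634, 2566 and 2210 CPM in WT and 3457, 3472, 3247, 3352 and 3006 CPM in Adn-Lpin1-/- mice. The HFD values were 2013, 2046, 1994, 1936 and 2813 CPM in WT and 2350, 2511, 2520, 3280 and 2939 CPM in Adn-Lpin1-/- mice. All Adn-Lpin1-/- mice were above all WT mice on the LFD, and on the HFD WT mouse 5 alone lay among the Adn-Lpin1-/- mice. Kng1 rose by a log2 fold change of 0.44 ± 0.11 (edgeR, adjusted p = 0.00873) on the LFD and 0.33 ± 0.11 (adjusted p = 0.0347) on the HFD. Its near copy Kng2 had a log2 fold change of 0.35 ± 0.09 (adjusted p = 0.00987) on the LFD and 0.21 ± 0.09 (adjusted p = 0.0975) on the HFD, at 0.1704 to 0.192 of the level of Kng1 per kilobase in the group means. Because of Kng1, the summed contact members were higher in Adn-Lpin1-/- mice, by 22.4% with the LFD and 16.0% with the HFD.

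Of the contact factors beside Kng1, F12 was called lower on the LFD and F11 on the HFD. F12, factor XII, which starts contact activation, was 695 to 799 CPM in WT LFD and 583 to 688 CPM in Adn-Lpin1-/- LFD, without overlap (edgeR, log2 fold change -0.20 ± 0.06, adjusted p = 0.0378), and did not pass on the HFD (adjusted p = 0.151). F11, factor XI, which factor XII activates, was called on the HFD, at 85.7 to 143 CPM in WT and 45.4 to 99.2 CPM in Adn-Lpin1-/- mice (log2 fold change -0.59 ± 0.18, adjusted p = 0.0285). On the LFD F11 had a log2 fold change of -0.52 ± 0.18 and an adjusted p of 0.0551.

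Of the vitamin K dependent proteases that lead to thrombin, F10, factor X, where both routes of clotting meet, and F2, prothrombin, fell on both diets. F10 was 538, 529, 582, 546 and 489 CPM in WT LFD and 470.4, 382, 438, 424 and 339 CPM in Adn-Lpin1-/- LFD, and 444 to 570.2 CPM in WT HFD against 352 to 411 CPM in Adn-Lpin1-/- HFD. F10 had a log2 fold change of -0.39 ± 0.09 on both diets (edgeR, adjusted p = 0.00568 on the LFD and 0.00497 on the HFD). F2 was 2190, 2225, 2292, 2148 and 2006 CPM in WT LFD and 1815, 1728, 1782, 1823 and 1615 CPM in Adn-Lpin1-/- LFD. On the HFD F2 was 2091, 2072, 2068, 2004 and 2341 CPM in WT and 1751, 1731, 1738, 1918 and 1762 CPM in Adn-Lpin1-/- mice. Neither gene overlapped between genotypes on either diet, and the log2 fold change of F2 was -0.31 ± 0.06 (adjusted p = 0.00255) and -0.25 ± 0.06 (adjusted p = 0.00959).

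F7, factor VII, the partner of tissue factor, was called on the LFD (112 to 136 CPM in WT, 67.0 to 104 CPM in Adn-Lpin1-/- mice, edgeR, log2 fold change -0.51 ± 0.14, adjusted p = 0.0195) and just missed on the HFD (adjusted p = 0.0515). F9, factor IX, the protease whose loss causes haemophilia B, was called on the HFD (189 to 221 CPM in WT, 164 to 192 CPM in Adn-Lpin1-/- mice, log2 fold change -0.20 ± 0.06, adjusted p = 0.0286) and not on the LFD (adjusted p = 0.0684). F5, factor V, the cofactor of factor X in making thrombin, had log2 fold changes of -0.26 ± 0.10 and -0.25 ± 0.10 and passed on neither diet (adjusted p = 0.0708 and 0.0717).

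The 3 fibrinogen chains, which are joined in equal numbers in the protein, had close values in each comparison. On the HFD Fgb was 4500, 4019, 4266, 3798 and 5561 CPM in WT and 2777, 3370, 3224, 3813 and 3351 CPM in Adn-Lpin1-/- mice. Only Adn-Lpin1-/- mouse 4 was above a WT mouse, WT mouse 4. All 3 chains fell on the HFD in edgeR, with log2 fold changes of -0.41 ± 0.13 for Fga (adjusted p = 0.0292), -0.42 ± 0.13 for Fgb (adjusted p = 0.0354) and -0.42 ± 0.12 for Fgg (adjusted p = 0.0234). Fga ranged from 3370 to 5169 CPM in WT HFD and from 2748 to 3660.0 CPM in Adn-Lpin1-/- HFD, and Fgg from 2393 to 3675 CPM and from 1858 to 2509 CPM.

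On the LFD no chain passed, with log2 fold changes between -0.34 and -0.28 and adjusted p between 0.0971 and 0.146 in edgeR. Fgb was 4658, 4934, 4503, 4481 and 4460 CPM in WT LFD and 4210, 3363, 4399, 3894 and 2365 CPM in Adn-Lpin1-/- LFD. All Adn-Lpin1-/- mice lay below all WT mice for Fgb, but they were widely spread, with mouse 5 far below the others. Fga was 3905 to 5013 CPM in WT LFD and 2649 to 4409 CPM in Adn-Lpin1-/- LFD, and Fgg 2818 to 3367 CPM and 1798 to 2888 CPM, and both overlapped. Within a group the chains ranked the mice much alike: the highest mouse was the same for all 3 chains in each of the 4 groups, and in Adn-Lpin1-/- LFD the order of all 5 mice was the same. The ratio of Fgg to Fgb per kilobase was 0.682 ± 0.0264 in WT and 0.706 ± 0.0564 in Adn-Lpin1-/- mice on the LFD, and 0.699 ± 0.0596 and 0.702 ± 0.0191 on the HFD, differences smaller than the spread between mice. F13b, the carrier subunit of factor XIII, which cross-links fibrin, fell on both diets without overlap: 142 to 174 CPM against 124 to 138 CPM on the LFD, and 164 to 181 CPM against 125 to 151 CPM on the HFD (edgeR, log2 fold change -0.27 ± 0.06 and -0.25 ± 0.06, adjusted p = 0.00682 and 0.00942).

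Of 4 genes that restrain clotting, 3 were called lower on each diet. Serpinc1, antithrombin, the main inhibitor of thrombin and factor Xa, was 2373, 2444, 2369, 2441 and 2121 CPM in WT LFD and 2041, 1885, 1973, 1929 and 1770.0 CPM in Adn-Lpin1-/- LFD. On the HFD Serpinc1 was 2154, 2082, 1968, 2025 and 2280.0 CPM in WT and 1548, 1559, 1775, 1942 and 1666 CPM in Adn-Lpin1-/- mice. The genotypes were apart on both diets, and the log2 fold change was -0.29 ± 0.07 (edgeR, adjusted p = 0.0104) and -0.31 ± 0.07 (adjusted p = 0.00694).

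Serpind1, heparin cofactor II, another thrombin inhibitor, was 435 to 502 CPM in WT LFD against 316 to 385 CPM in Adn-Lpin1-/- LFD, and 450.1 to 521 CPM against 336 to 444 CPM on the HFD (edgeR, log2 fold change -0.39 ± 0.07 and -0.30 ± 0.07, adjusted p = 0.00186 and 0.0103). Proc, protein C, which switches off factors V and VIII, was called on the LFD only by its adjusted p of 0.0436 (701 to 938 CPM in WT, 571 to 745 CPM in Adn-Lpin1-/- mice, log2 fold change -0.34 ± 0.11), with an adjusted p of 0.319 on the HFD in edgeR. Pros1, protein S, its cofactor, was called on the HFD (48.6 to 64.6 CPM in WT, 39.1 to 50.6 CPM in Adn-Lpin1-/- mice, log2 fold change -0.29 ± 0.08, adjusted p = 0.0216), with an adjusted p of 0.4 on the LFD.

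Both sides of fibrinolysis fell too. Plg, plasminogen, the precursor of plasmin, was 2801, 2703, 3082, 2699 and 2571 CPM in WT LFD and 2368, 1961, 2057, 2121 and 1750 CPM in Adn-Lpin1-/- LFD. HFD values of Plg were 2770, 2908, 2706, 2466 and 3042 CPM in WT and 2057, 2011, 1933, 2473 and 2236 CPM in Adn-Lpin1-/- mice, with Adn-Lpin1-/- mouse 4 just above WT mouse 4. Its log2 fold change was -0.43 ± 0.09 (edgeR, adjusted p = 0.00278) on the LFD and -0.38 ± 0.09 (adjusted p = 0.00681) on the HFD.

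Serpinf2, alpha 2 antiplasmin, the plasmin inhibitor, was 705, 777, 775, 681 and 785 CPM in WT LFD and 621, 550.4, 587, 541 and 406 CPM in Adn-Lpin1-/- LFD. On the HFD it was 911, 840.1, 869, 793 and 1078 CPM in WT and 558, 610.3, 594, 694 and 684 CPM in Adn-Lpin1-/- mice. It fell without overlap, with a log2 fold change of -0.46 ± 0.10 (edgeR, adjusted p = 0.00569) and -0.52 ± 0.10 (adjusted p = 0.00244). Cpb2, the carboxypeptidase that slows plasmin formation, was called on the HFD (263 to 406 CPM in WT, 227 to 283 CPM in Adn-Lpin1-/- mice, log2 fold change -0.31 ± 0.11, adjusted p = 0.0468) and not on the LFD (adjusted p = 0.0814).

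Groups were set apart mouse by mouse for part of the members. On the LFD all Adn-Lpin1-/- mice lay below all WT mice for 16 members, against 6.21% of all genes, and above them for 1, against 3.89%. On the HFD they lay below for 9 members, against 5.6% of all genes, and above for 0, against 5.78%.

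The calls of many members depended on single mice. On the LFD the number of members called fell from 16 to 10 without WT mouse 3 and without Adn-Lpin1-/- mouse 5, and rose to 22 without WT mouse 5. On the HFD it fell from 23 to 14 without WT mouse 2 or Adn-Lpin1-/- mouse 1 and to 15 without WT mouse 5 or Adn-Lpin1-/- mouse 2. On the LFD the calls of C3 and Hc were lost without WT LFD mouse 3 or Adn-Lpin1-/- LFD mouse 5 (adjusted p up to 0.0593 for C3 and 0.0584 for Hc in edgeR), that of F7 without those mice or Adn-Lpin1-/- LFD mouse 2 (up to 0.0591), and those of C2, F12 and Proc without 7, 6 and 10 of the 20 mice (up to 0.0804, 0.105 and 0.113). On the HFD the call of Mbl2 was lost without Adn-Lpin1-/- mouse 1 (0.0547), that of Pros1 without WT mouse 2 or Adn-Lpin1-/- mouse 3 (up to 0.0593), and that of F9 without WT mouse 2 or Adn-Lpin1-/- mouse 1 or 2 (up to 0.0815). The calls of Fga and Fgg were lost without WT HFD mouse 2 or 5 or Adn-Lpin1-/- HFD mouse 1 or 2 (up to 0.0767 and 0.065), that of F11 without WT HFD mouse 5 or Adn-Lpin1-/- HFD mouse 1, 2 or 3 (up to 0.0707), and those of C8a, Serping1, Vtn, Fgb, Kng1 and Cpb2 without 5, 5, 5, 6, 6 and 9 of the 20 mice (up to 0.085, 0.0791, 0.0852, 0.0948, 0.09 and 0.129). Calls kept without each of the 20 mice were those of C8g, Vtn, Kng1, F10, F2, F13b, Serpinc1, Serpind1, Plg and Serpinf2 on the LFD and of C3, Hc, C8b, Cfi, F10, F2, F13b, Serpinc1, Serpind1, Plg and Serpinf2 on the HFD.

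Diet moved the members far less. None of the 37 was called between HFD and LFD in WT mice, against 1.1% of all genes, and none in Adn-Lpin1-/- mice, against 2.46%. At an unadjusted p under 0.05 in edgeR there were 5 members in WT and 4 in Adn-Lpin1-/- mice, beside 2059 and 2097 of all 13052 genes. With DESeq2 1 member was called in WT and none in Adn-Lpin1-/- mice, beside 3.06% and 4.42% of all genes. The lowest adjusted p in WT mice was that of F12, 0.104, for which all HFD mice lay at 629 to 671 CPM, below the LFD mice at 695 to 799 CPM (log2 fold change -0.21 ± 0.06). Serpinf2 had a log2 fold change of 0.27 ± 0.10 in WT (adjusted p = 0.202), with every HFD mouse above every LFD mouse. These comparisons share their mice with those of genotype. The summed members stood at 44040 CPM in WT LFD and 44350 CPM in WT HFD, and at 36050 and 35140 CPM in Adn-Lpin1-/- mice.

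No member was called for the interaction of genotype with diet in edgeR or DESeq2, against 0% of all genes in edgeR. Over all 13052 genes, 938 had an unadjusted p under 0.05 in edgeR and DESeq2 called 30. Of the members only Mbl2 had an unadjusted p under 0.05. The differences ran from -0.32 (Mbl2) to 0.30 (C2) on the log2 scale with standard errors of 0.08 to 0.40, so a member called on 1 diet and not the other was not shown to differ between the diets.

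Markers of liver cell types moved in the same comparisons. Of 10 hepatocyte markers, 8 were lower by sign on the LFD and 9 on the HFD in Adn-Lpin1-/- mice. Called lower were 2 on the LFD (Apob, Asgr1) and 5 on the HFD (Alb, Apoa1, Apob, Ahsg, Cps1). On the LFD 8.11% of all genes and 18.3% of those at 100 CPM or more were called lower, and on the HFD 8.78% and 20.7%. The summed level of the 10 markers ran from 117400 to 124500 CPM in WT LFD, 83600 to 112200 CPM in Adn-Lpin1-/- LFD, 107000 to 138100 CPM in WT HFD and 88030 to 117300 CPM in Adn-Lpin1-/- HFD, so its mean fell by 14.8% on the LFD and 23.6% on the HFD. Alb made up most of this sum, with a mean of 78710 of 121600 CPM in WT LFD. Among the 10, Ttr had log2 fold changes of 0.04 and -0.01 and Tat of 0.53 and 0.23 on the LFD and the HFD, and neither passed on either diet. In bulk tissue, fewer hepatocytes and less of these transcripts per hepatocyte cannot be told apart.

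All 8 macrophage markers were higher by sign in Adn-Lpin1-/- mice on both diets, and edgeR called 0 of them on the LFD and 6 on the HFD. Of all genes, 6.27% and 9.87% were called higher. At an unadjusted p under 0.05, 1 macrophage marker was found on the LFD. The sum of these markers ran from 116 to 213 CPM in WT LFD, 145 to 289 CPM in Adn-Lpin1-/- LFD, 142 to 180.4 CPM in WT HFD and 186 to 430.1 CPM in Adn-Lpin1-/- HFD. Sinusoidal endothelial markers summed to 122 to 192 CPM, 170 to 280 CPM, 137 to 201 CPM and 221 to 247 CPM in the same order, with 3 of 7 called higher on the LFD and 4 on the HFD. Of 7 stellate cell markers, edgeR called 2 higher on the LFD and 1 higher on the HFD. Of 5 red blood cell markers 0 were called on either diet, with 0 at an unadjusted p under 0.05. Of 5 platelet markers 2 were abundant enough to be tested, of which Itga2b was called higher on the HFD (log2 fold change 0.44 ± 0.12, adjusted p = 0.017), and of 5 neutrophil markers 0 were. Of 5 adipocyte markers only Cfd was abundant enough to be tested. Plin1, Lep and Retn were at 0.116 CPM or less in every mouse, and Adipoq reached 4.32 CPM in WT LFD and 0.746 CPM at most in the other groups. The part of these cell types in the lower member levels was not tested.

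Of 14 regulators of these genes, 13 were tested. Cebpa, a liver transcription factor that binds C/EBP sites, fell on both diets (edgeR, log2 fold change -0.31 on each, adjusted p = 0.011 on the LFD and 0.00959 on the HFD). Osmr, the oncostatin M receptor, rose by 0.89 (adjusted p = 0.00107) and 0.57 (adjusted p = 0.0149). Il1b, a cytokine of the acute phase, was near the limit of 1 CPM for testing and passed it mostly through Adn-Lpin1-/- mice. On the HFD it was 0.310 to 0.959 CPM in WT and 0.434 to 3.46 CPM in Adn-Lpin1-/- mice, with overlap. Its log2 fold change was 1.51 on the HFD (edgeR, adjusted p = 0.023), and it did not pass on the LFD (adjusted p = 0.13). No conclusion is drawn from its call. Hnf4a, which governs many liver promoters, passed on neither diet.

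**Figure D4:**
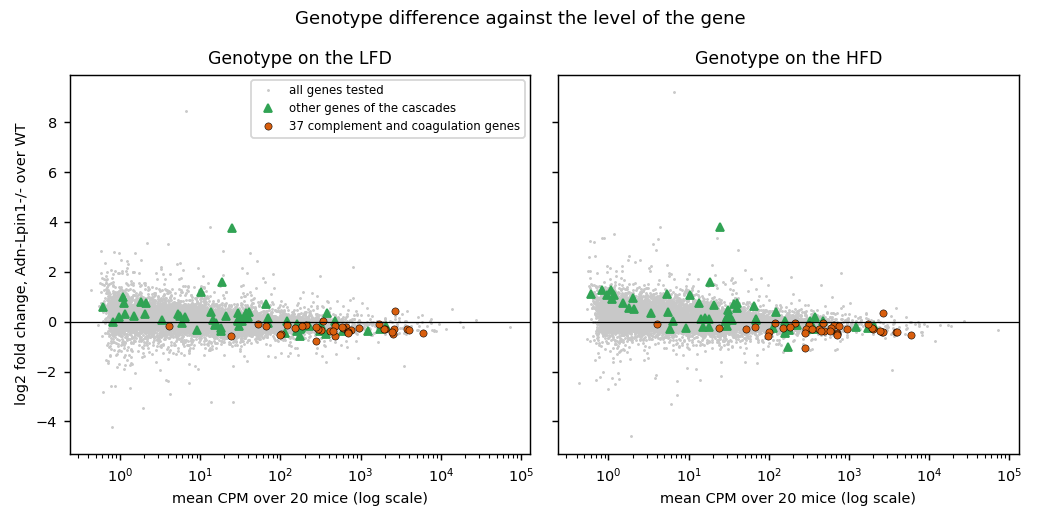
Log2 fold change of Adn-Lpin1-/- against WT mice (vertical axis) against mean CPM over the 20 mice (horizontal log axis) for all 13052 genes tested (grey), the 37 members (circles) and 57 other genes of the cascades (triangles), on the LFD (left) and the HFD (right). The members sit among abundant genes and mostly just below 0, while the other genes include low ones well above 0.

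The other genes of the 2 cascades did not share 1 direction. Of 70 such genes (C1 and its relatives, other soluble complement proteins, complement receptors, endothelial and platelet clotting proteins, fibrinolytic regulators, and enzymes that process clotting factors), 57 were tested. On the LFD 17 passed in edgeR (29.8%), 6 higher and 11 lower in Adn-Lpin1-/- mice. Among all genes 14.4% passed there, 6.27% higher and 8.11% lower. On the HFD 23 passed (40.4%), 14 higher and 9 lower, against 18.6% of all genes, 9.87% higher and 8.78% lower. The median log2 fold change was 0.03 and 0.12. Without Adn-Lpin1-/- LFD mouse 5 the count on the LFD was 11, and on the HFD it was 15 without WT HFD mouse 3 and 12 and 8 without Adn-Lpin1-/- HFD mouse 1 and 2.

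Among genes of this list that fell on both diets, Serpina10, the inhibitor that acts on factor X with protein Z, was 141 to 189 CPM in WT LFD and 118 to 144 CPM in Adn-Lpin1-/- LFD, and 161 to 235 CPM and 115 to 167 CPM on the HFD, with overlap on both diets. Its log2 fold changes were -0.36 ± 0.10 and -0.46 ± 0.10 (edgeR, adjusted p = 0.0268 and 0.00602). Cfhr2, a soluble complement protein, fell as well (-0.50 ± 0.09 and -0.31 ± 0.09, adjusted p = 0.0017 and 0.0279), and reads it shares with its close relatives were dropped.

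Of the genes that rose on both diets, Anxa2, annexin A2, which with S100a10 holds plasminogen and its activator on cell surfaces, was 4.88 to 10.2 CPM in WT LFD and 14.4 to 38.6 CPM in Adn-Lpin1-/- LFD (log2 fold change 1.57 ± 0.29 on both diets, edgeR, adjusted p = 0.00153 and 0.00123), and S100a10 rose by 0.72 ± 0.20 and 0.63 ± 0.20. Vwf, von Willebrand factor, an endothelial protein that carries factor VIII, was 3.72 to 7.04 CPM in WT LFD and 8.83 to 13.8 CPM in Adn-Lpin1-/- LFD, and 5.51 to 10.1 CPM and 10.9 to 23.5 CPM on the HFD (log2 fold change 1.17 ± 0.22 and 1.06 ± 0.22, adjusted p = 0.00187 and 0.00307). Cfd, factor D, known as adipsin and a marker of adipocytes, had the widest spread: 0.180 to 2.71 CPM in WT LFD, 1.76 to 35.95 CPM in Adn-Lpin1-/- LFD, 1.39 to 16.3 CPM in WT HFD and 3.90 to 184 CPM in Adn-Lpin1-/- HFD. Its log2 fold changes were 3.76 ± 1.18 and 3.81 ± 1.02 (adjusted p = 0.0376 and 0.015), with overlap between the genotypes on both diets.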

How the data were processed

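Poly-A RNA from mouse liver was sequenced in 24 libraries, 20 from single mice and 4 pools. The authors deposited a raw read count per gene, made with STAR 2.5.1a and featureCounts 1.4.6-p5 on GRCm38 with Ensembl annotation, and also deposited CPM and RPKM values, which matched the counts to within 8.9e-11. The RPKM values were used only for a check of levels per kilobase. Symbols came from GENCODE release 21 on GRCm38, which gave 40254 of 41388 identifiers (97.3%) a symbol. Exon positions and lengths were those deposited with the counts. After 355 rRNA genes were left out, genes over 1 CPM in at least 4 libraries were kept (13052), with TMM scaling.

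Single mice of the 4 groups were fitted together with edgeR 4.0.16 (R 4.3.3) by the quasi-likelihood test, with contrasts for genotype within a diet, for diet within a genotype and for their interaction, and an adjusted p at or below 0.05 was called. Pools, which hold RNA of the same mice, entered only 1 alternative. Total counts ran from 36260187 to 81072794 per mouse. No mice were copies of each other (lowest chi-square per degree of freedom 31.9). The code was tested on simulated counts. Every member called on either diet was named, with C3, Hc, C9, Mbl1, F2, the 3 fibrinogen chains, Serpinc1 and Plg as fixed examples, and at most 8 other genes called on both diets with the greatest mean change, some of which are not reported here. The members and lists were chosen with earlier results of these data known. Alternatives were DESeq2 1.42.0 size factors and Wald test, upper-quartile scaling, limma 3.58.1 voom, other limits on low counts, a GC trend, a replicate block, only the groups compared, and each mouse left out. Sequences came from RefSeq, GRCm38.p6. Python 3.11.15 with scipy 1.17.1 and matplotlib 3.10.9 made tables and plots.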

Additional observations from a re-analysis of the deposited data

Results flagged for a closer look

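In 9 of 148 combinations of a member and a group, 1 mouse stood apart from the other 4 by Dixon's criterion, which chance meets in about 1 in 20 groups, and no explanation was tested. WT HFD mouse 5 was the highest of its group for C8b (548 CPM), Kng1 (2813 CPM) and F2 (2341 CPM). WT LFD mouse 5 was the lowest for C8g (299 CPM) and Serpinc1 (2121 CPM), and WT LFD mouse 3 the highest for Pros1 (62.8 CPM). Among Adn-Lpin1-/- mice, HFD mouse 5 was the highest for C6 (321 CPM), HFD mouse 4 the highest for F2 (1918 CPM) and LFD mouse 1 the lowest for F13b (124 CPM).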

How the results depend on the processing

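No call changed direction under any alternative. On the LFD the 16 members called became 25 with voom and 30 with voom and the pools, and 10 to 22 with 1 mouse left out. The share of all genes called there rose as well, from 14.4% to 17% with voom and 31.9% with voom and the pools. On the HFD the 23 became 15 with only the groups compared and 14 to 25 with 1 mouse left out. Of all genes, 18.6% were called in the main fit and 15.2% with only the groups compared. For diet, the 0 members in WT became 1 with DESeq2, 3 with voom and 7 with the pools, and the 0 in Adn-Lpin1-/- mice became 6 with the pools, as the 0 for the difference became 1. Of all genes, DESeq2 called 3.06%, voom 5.13% and voom with the pools 14.8% for diet in WT. With the pools the shares were 17.9% in Adn-Lpin1-/- mice and 1.45% for the difference, so these counts do not set the members apart. With 1 mouse left out, the member counts for diet and for the difference stayed at 0. The pools entered as sixth libraries but hold RNA of the same mice, so counts with them treat the same mice as further replicates. The cause of the other changes was not tested.

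Of the other cascade genes, the 17 called on the LFD were 11 to 17 and the 23 on the HFD 8 to 29 with 1 mouse left out, and 36 on the HFD with voom and the pools. That last setting called 36.3% of all genes on the HFD. For diet in WT, the 1 called became 3 with DESeq2, 2 with voom, 10 with the pools, 0 with no limit on low counts and 0 to 3 with 1 mouse left out. The share of all genes called there was 1.1% in the main fit. It was 3.06% with DESeq2, 5.13% with voom, 14.8% with the pools and 0.376% with no limit. In Adn-Lpin1-/- mice the 2 became 10 with the pools, 1 with no limit or the default limit, 0 with only the groups compared and 0 to 4 with 1 mouse left out. Of all genes, 2.46% were called in the main fit there and 17.9% with the pools. The shares were 0.787% with no limit, 1.54% with the default limit and 1.23% with only the groups compared.

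Replicate numbers did not pair the mice: 6 of 30 pairs of same-numbered mice correlated over 0.1 (r from -0.409 to 0.274). With the replicate block, 14 members passed on the LFD and 16 on the HFD, with 14 of the 16 and 16 of the 23 kept. Of all genes, 11.7% and 15.4% passed with it. The block, with or without the GC trend removed, gave 0 of the other cascade genes for diet in either genotype. Without that removal it gave 0.69% of all genes in WT and 1.64% in Adn-Lpin1-/- mice. Upper-quartile scaling kept 14 of 16 and 22 of 23 member calls and removal of the GC trend 15 and 17, while the split of all genes into higher and lower moved from 818 and 1059 to 1010 and 847 or to 606 and 1442 on the LFD, and from 1288 and 1146 to 1434 and 948 or to 830 and 1652 on the HFD. Calls kept in every setting were C8g, F10, F2, Kng1, Plg, Serpinc1, Serpind1, Serpinf2 and Vtn on the LFD and C3, C8b, Cfi, F10, F2, Hc, Plg, Serpinc1, Serpind1 and Serpinf2 on the HFD. With 5 mice a group, an exact permutation test of a single gene cannot go below p = 0.00794.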
